A study of Mus musculus with 12 samples.

Results

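The comparison between MRL/lpr mice with and without the receptor Fn14 covered 8 of the 12 cortex samples of the series, chosen by their labelled strain and genotype: 4 MRL/lpr mice and 4 Fn14ko mice, which are MRL/lpr mice that lack Fn14. All 8 were adult females of about 12 weeks, and by the study's methods the Fn14ko animals were littermates from backcross generation 8 onto MRL/lpr, so both groups carry the lpr mutation of Fas and differ by design in Fn14. The remaining 4 samples, from MRL/+ mice with intact Fas, entered only an alternative fit. RNA was hybridised to 4 two-colour Agilent arrays, with 2 mice of the same group on each array, the odd-numbered mouse in Cy3 and the even-numbered mouse in Cy5. Each of the 2 slides held a single group, and the effect of the slide therefore cannot be told apart from that of the genotype in any difference below.

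Fn14, encoded by Tnfrsf12a, is a small receptor of the tumour necrosis factor receptor superfamily, and TWEAK, encoded by Tnfsf12, is its ligand. Binding of TWEAK recruits TRAF adaptor proteins to the receptor and activates NF-kappaB and MAP kinase signalling, through which brain endothelial cells, astrocytes and neurons can make chemokines, adhesion molecules and other inflammatory products. MRL/lpr mice, whose lpr mutation impairs the death receptor Fas, accumulate lymphocytes and develop autoantibodies, kidney disease and behavioural changes that serve as a model of neuropsychiatric lupus.

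A spot was used if it was not marked by the scanner software and reached 2 times the local background in all 8 mice, which left 24731 of 43020 non-control spots, standing for 17549 genes. Signals are given as multiples of the median retained spot of the same sample, and differences as log2 of Fn14ko over MRL/lpr with the standard error (SE) of the limma fit. The share of spots well above background ranged from 56.6 to 70% over the 8 mice. Correlations of the log2 signals over all genes ran from 0.98 to 0.988 between the 2 mice of an array and from 0.976 to 0.983 between the 2 Fn14ko arrays. They ran from 0.925 to 0.959 between the 2 MRL/lpr arrays and from 0.918 to 0.968 between mice of different groups. Of the 30 cortical layer markers on the array, 27 were measured in all 8 mice, and Slc17a7, the vesicular glutamate transporter of cortical excitatory neurons, lay between 8.95 and 20.9. Passing the filter does not by itself identify cortex, since 19 of the 22 striatal markers on the array were measured too.

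The gene that checks the labels is Tnfrsf12a, measured by 1 probe on the minus strand of chromosome 17 (mm9, chr17:23812746-23812805), whose first 30 bases are shown because the call on the missing receptor rests on this probe alone.
Tnfrsf12a: agccttccaaggtgtccaattgccctatct
Its signal was 1.92, 1.61, 1.95 and 1.42 in MRL/lpr mice 1 to 4 and 0.757, 0.797, 0.623 and 0.672 in Fn14ko mice 1 to 4. The groups did not overlap, and Tnfrsf12a was 2.41-fold lower in Fn14ko (log2 difference -1.27, SE 0.19, limma adjusted p = 0.00984; exact 2-sided permutation p = 0.0286, the smallest that the 70 splits of 8 mice allow). The permutation treats the 8 mice as interchangeable and takes no account of the pairs of mice that shared an array. Despite its lower signal, the Tnfrsf12a spot stayed well above background in all 4 Fn14ko mice, and whether the probe lies inside the deleted part of the gene is not given in the sources used here.

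The ligand gene did not pass the threshold. Tnfsf12 was at 0.629, 0.688, 0.412 and 0.535 in MRL/lpr and at 0.649, 0.627, 0.516 and 0.412 in Fn14ko (log2 difference -0.03, SE 0.25). Fas, which carries the lpr mutation in both groups, was dim in both, from 0.17 to 0.292 in MRL/lpr and from 0.176 to 0.339 in Fn14ko (0.22, SE 0.37). Of 13 measured genes of the receptor-proximal list, the adaptor gene Traf5 was the only one besides Tnfrsf12a to pass the threshold: it lay between 0.709 and 0.824 in MRL/lpr and between 0.359 and 0.458 in Fn14ko, and fell by 0.94 on the log2 scale (SE 0.18, limma adjusted p = 0.0263). Traf5 kept its call in only 3 of the 8 fits that each left out 1 mouse. With the knocked-out gene itself, the called share of the list was 15.4%, beside 3.96% of all genes. None of the 21 measured NF-kappaB subunits, inhibitors and kinases passed, the lowest p belonging to the subunit Rel (-0.66, SE 0.19, adjusted p = 0.0993), and none of the 15 measured genes reported as TWEAK targets passed, with Gfap (1.12, SE 0.32, adjusted p = 0.0896) and Ccl2 (2.3, SE 0.74, adjusted p = 0.124) closest to it. The median differences of these lists were 0.09 for the receptor-proximal list, 0.09 for NF-kappaB and 0.34 for the reported targets, beside a median of 0.07 over all genes.

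Over all genes, 695 of 17549 passed a limma adjusted p of 0.05, or 3.96%. Of these, 305 were higher in Fn14ko (1.74% of genes tested) and 390 lower (2.22%), with a median absolute log2 difference of 1.21, and 491 differed by at least 2-fold. At an unadjusted p under 0.05 the count was 3545. With loess and quantile scaling, 1598 were higher and 1312 lower, and with quantile scaling alone 1643 and 1369, so the side with more genes turned. Without Fn14ko 2 the count was 201, without MRL/lpr 1 it was 268 and without MRL/lpr 4 it was 385. Of the 45 called genes among those chosen by the naming rule, 17 kept the call whichever mouse was left out, among them Shisa6, Crym, Spink8, Olfml2b, Slc26a4, Klk8, Serpina3n, Lct and Foxo1 on the higher side, and Tnfrsf12a, Ifit3b, Itpripl2, Tcap, Cd6, Siglech and Lingo1 on the lower. The other 28 lost it in at least 1 of 8 such fits, 27 of them without Fn14ko 2 and Trf without MRL/lpr 1 or 4. The split between directions depended on the naming of the features: among features with a gene symbol, 276 were higher and 211 lower (3.51% of 13886), whereas among the 3663 features without a symbol, 29 were higher and 179 lower. Groups did not overlap in 3520 genes, 20.1% of those tested, and in 688 of the 695.

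**Figure D1:**
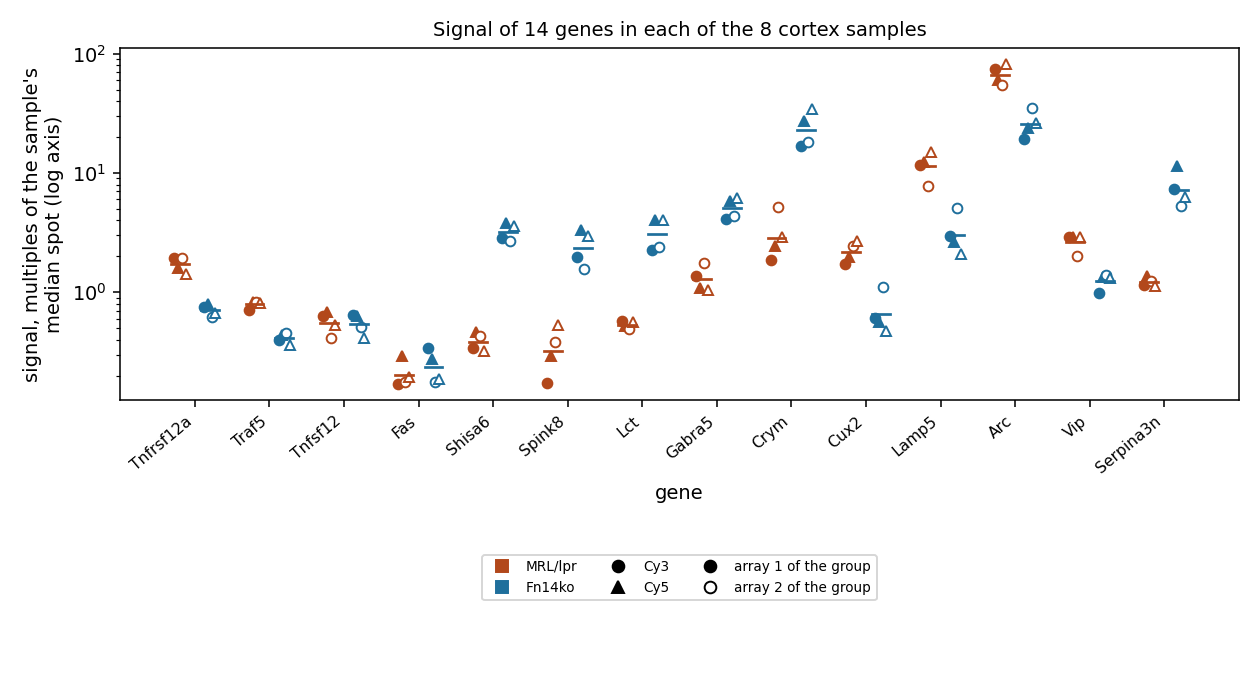
Signal of 14 genes in each mouse, in multiples of the sample's median spot on a log axis, with MRL/lpr in brown and Fn14ko in blue. Circles are Cy3 and triangles Cy5 samples, filled symbols the first and open symbols the second array of a group, and bars geometric means; Tnfrsf12a separates the groups at 1.42 to 1.95 against 0.623 to 0.797, while Tnfsf12 and Fas overlap.

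The genes with the highest differences among named, called genes whose groups did not overlap were mostly neuronal or secreted-protein genes. Shisa6, an auxiliary subunit of AMPA receptors, was at 0.344, 0.466, 0.428 and 0.325 in MRL/lpr and at 2.87, 3.82, 2.68 and 3.56 in Fn14ko, an 8.27-fold difference (log2 3.05, SE 0.23, limma adjusted p = 0.00105). Crym, which encodes the thyroid hormone binding protein mu-crystallin, was at 1.86, 2.43, 5.23 and 2.89 against 16.9, 27.1, 18.3 and 34.2 (3.01, SE 0.44, adjusted p = 0.00907). In both genes every Fn14ko mouse lay above every MRL/lpr mouse, with 5.23 and 16.9 as the nearest pair in Crym. Spink8, a serine protease inhibitor expressed in hippocampal pyramidal neurons, was between 0.173 and 0.535 in MRL/lpr and between 1.56 and 3.32 in Fn14ko (2.87, SE 0.29, adjusted p = 0.00204). Klk8, the protease neuropsin, was between 0.376 and 0.581 against 2.09 and 3.47 (2.62, SE 0.19, adjusted p = 0.00105). Serpina3n, a serine protease inhibitor of reactive astrocytes, was between 1.14 and 1.37 against 5.28 and 11.4 (2.56, SE 0.25, adjusted p = 0.00196).

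Others in this set included Olfml2b (2.66), the anion exchanger gene Slc26a4 (2.63), and Jchain (2.64), described with the immunoglobulins below. Lrrc10b was also higher in Fn14ko (2.95, SE 0.6, limma adjusted p = 0.0291), but its levels were uneven within the group, at 10.2 in Fn14ko 1 and between 1.66 and 3.52 in the other Fn14ko mice, beside 0.308 to 0.607 in MRL/lpr.

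At the other end, several of the lowest differences came from probes that disagreed or did not pass when tested singly. Ifit3b, an interferon-induced gene, was at 1.94, 6.04, 1.52 and 4.45 in MRL/lpr and between 0.208 and 0.392 in Fn14ko (-3.37, SE 0.48, limma adjusted p = 0.00874), and Jade1, a subunit of a histone acetyltransferase complex, was at 4, 13.3, 1.79 and 4.45 against 0.433 to 0.648 (-3.06, SE 0.62, adjusted p = 0.0288). Tested singly, neither probe of either gene passed the threshold, with adjusted p from 0.229 to 0.424. The 2 probes of Itpripl2 gave -0.18 and -4.34, so its difference of -2.78 came from 1 of them. MRL/lpr mouse 2 had the highest value in Ifit3b, Jade1, Itpripl2 and Gxylt2.

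More even decreases were found in 5 genes with 1 probe each. Rasgef1c, a guanine nucleotide exchange factor gene, was between 6.84 and 9.28 in MRL/lpr and between 0.764 and 3.06 in Fn14ko (-2.58, SE 0.39, limma adjusted p = 0.0101). Tcap, which encodes the muscle protein telethonin, was between 2.77 and 3.92 against 0.373 and 1.05 (-2.44, SE 0.33, adjusted p = 0.00714). Cd6, a T cell surface glycoprotein gene, was between 1.07 and 1.96 against 0.268 and 0.334 (-2.27, SE 0.26, adjusted p = 0.00333), although the T cell gene Cd3e was between 0.528 and 0.744 against 0.421 and 0.634 and did not pass (-0.29, SE 0.18). Myl4, a myosin light chain gene, differed by -2.23, and Camk2n1, an inhibitor of calcium/calmodulin-dependent kinase II, by -2.18, from 18.5 to 34.5 in MRL/lpr against 3.42 to 9.81 in Fn14ko.

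**Figure D2:**
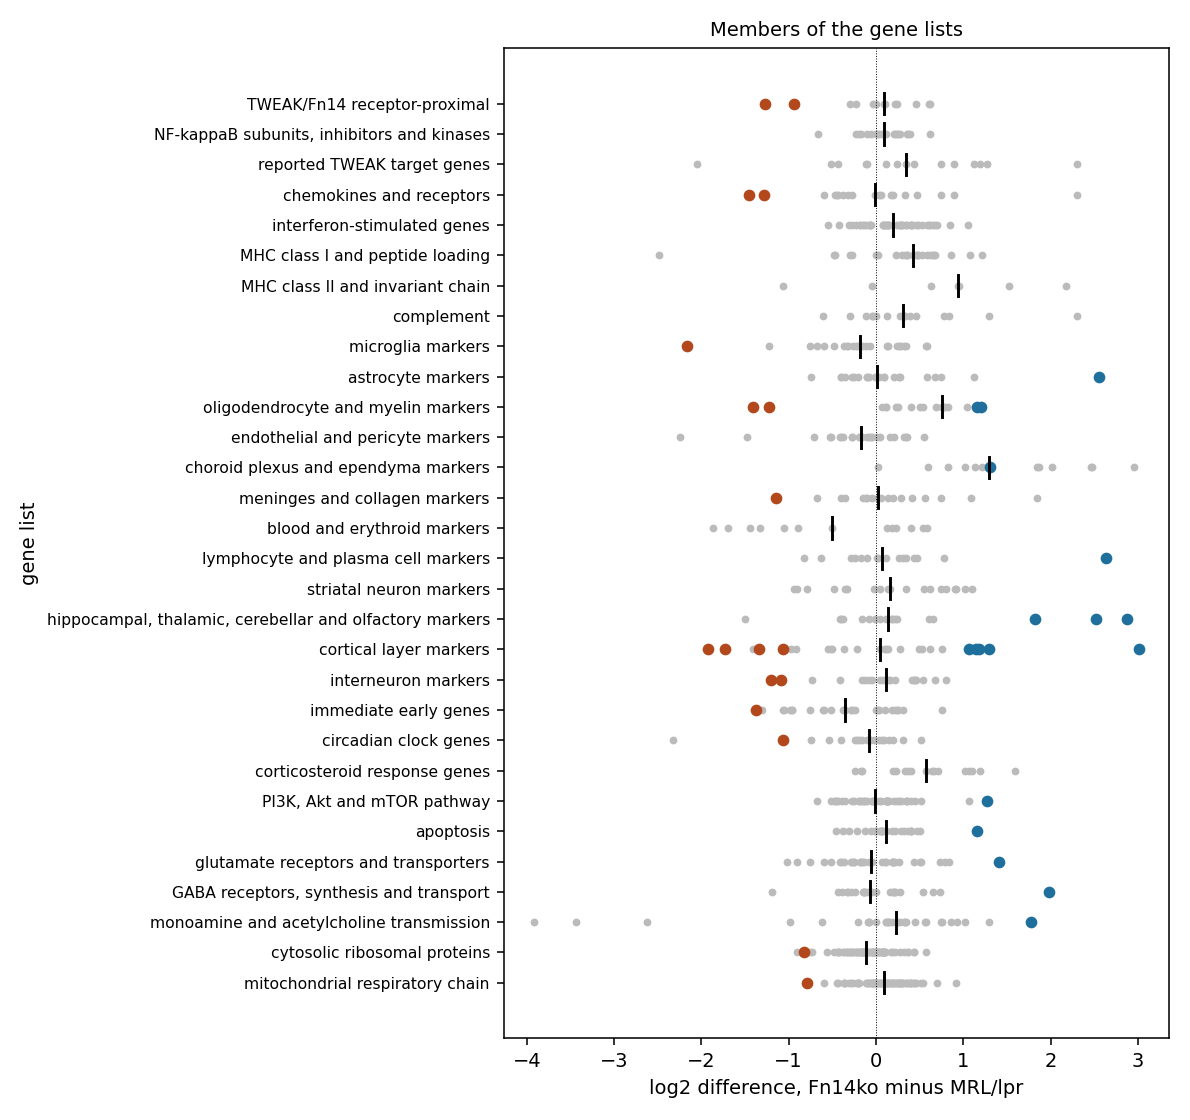
Log2 difference of every measured member of the gene lists, 1 row a list and 1 point a gene, with the list median as a black bar. Grey points did not pass a limma adjusted p of 0.05, blue points passed and were higher in Fn14ko, brown points passed and were lower; the cortical layer markers held 5 called genes above and 4 below, and the choroid plexus and ependyma median lay at 1.29.

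Genes that mark the layers of the cortex changed in both directions. Of 27 measured layer markers, 5 were higher and 4 lower in Fn14ko, 33.3% of the list beside 3.96% of all genes, and the list median was 0.05. The higher ones were Crym, as above, the transcription factor gene Etv1 (1.14, SE 0.2, limma adjusted p = 0.0201; 1.9 to 2.77 in MRL/lpr, 3.84 to 5.74 in Fn14ko), Bcl11b (1.3), which encodes the deep layer factor CTIP2, Bhlhe22 (1.18) and Pou3f1 (1.06). The lower ones were Rorb, which encodes a nuclear receptor of layer 4 (-1.06, SE 0.19, adjusted p = 0.0192; 0.919 to 1.25 against 0.472 to 0.576), Lamp5 (-1.92), the upper layer factor gene Cux2 (-1.73; 1.71, 1.96, 2.44 and 2.71 against 0.613, 0.568, 1.1 and 0.471) and Sox5 (-1.34), whose probe holds a repeat described below. Bcl11b, Bhlhe22, Pou3f1, Lamp5 and Cux2 lay outside the naming rule and were chosen after their values were seen. Of 20 measured interneuron markers, 2 fell (10% of the list, beside 3.96% of all genes), both of them neuropeptide genes: Crh, encoding corticotropin-releasing hormone, from 0.693 to 1.02 in MRL/lpr to between 0.352 and 0.42 in Fn14ko (-1.2, SE 0.19, adjusted p = 0.0132), and Vip, encoding vasoactive intestinal peptide, from 2.03 to 2.92 to between 0.979 and 1.4 (-1.09, SE 0.21, adjusted p = 0.0254).

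Markers of neighbouring regions stood beside these differences. Of 18 measured hippocampal, thalamic, cerebellar and olfactory markers, 3 were higher in Fn14ko and 0 lower (16.7% of the list beside 3.96% of all genes), while the list median was 0.14, 11 members were positive and the differences ran from -1.5 to 2.87. The 3 were Spink8, the dentate gyrus marker Lct (0.496 to 0.575 in MRL/lpr, 2.27 to 4.06 in Fn14ko; 2.52, SE 0.25, limma adjusted p = 0.00204) and the thalamic marker Prkcd (0.639 to 0.946 against 1.9 to 3.6; 1.82, SE 0.28, adjusted p = 0.0103). The mean level of the 18 members, each scaled to its mean over the 8 mice, ran from 0.79 to 1.12 in MRL/lpr and from 1.03 to 1.19 in Fn14ko. None of the 19 measured striatal markers passed, but their mean level was 2.99 in Fn14ko 1 and between 0.52 and 0.94 in the other 7 mice, with the dopamine receptor gene Drd1 at 1.74 in that mouse and between 0.153 and 0.519 elsewhere. In bulk cortex, a changed number of cells of a type and a changed amount of RNA per cell cannot be told apart, and the part that the dissected region had in the layer and neuropeptide differences was not tested.

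The 14 measured choroid plexus and ependyma markers all had positive differences, with a median of 1.29, but only Foxj1, a transcription factor gene of ciliated cells, passed the threshold (0.357 to 0.677 in MRL/lpr, 0.997 to 1.82 in Fn14ko; 1.31, SE 0.29, limma adjusted p = 0.0428). The mean level of the list was 0.23, 0.33, 1.1 and 0.77 in MRL/lpr against 1.27, 1.65, 0.53 and 2.13 in Fn14ko. Epithelial markers of the plexus also differed between mice of a group: Clic6 was at 0.204, 0.329, 1.93 and 0.455 in MRL/lpr and at 4.41, 4.46, 1.49 and 7.38 in Fn14ko (2.96, SE 0.95, adjusted p = 0.124). Fn14ko 3 was the lowest Fn14ko mouse and MRL/lpr 3 the highest MRL/lpr mouse in Clic6, and the groups overlapped.

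Immunoglobulin transcripts had some of the highest differences of the comparison. The set was drawn up from the probe descriptions after values had been seen, so it is given as a description: 18 immunoglobulin features were measured in all 8 mice, all 18 differences were positive, 6 passed the threshold as higher in Fn14ko, and the median difference was 1.91. Over all genes, 1.74% were called higher and the median difference was 0.07. The gamma 2C constant region, part of an IgG heavy chain, was at 0.139, 0.225, 0.13 and 0.227 in MRL/lpr and at 0.639, 4.09, 1.77 and 18.5 in Fn14ko (4.13, SE 0.77, limma adjusted p = 0.0228). The kappa light chain constant region was at 0.761, 1.58, 1.46 and 1.69 against 3.37, 36, 7.55 and 64.5 (3.57, SE 0.77, adjusted p = 0.0388). The groups did not overlap in either, and Fn14ko 4 was highest and Fn14ko 1 lowest of their group in both.

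The same order of mice held for the gamma 1 constant region (0.388, 1.64, 0.675 and 5.36 in Fn14ko, 0.14 to 0.295 in MRL/lpr; 2.65, limma adjusted p = 0.0363), the gamma 2B constant region (0.269, 0.788, 0.371 and 2.74 against 0.0806 to 0.181; 2.52, adjusted p = 0.0299) and Jchain, which encodes the chain that joins IgM and IgA into polymers (0.454, 2.01, 0.791 and 4.53 against 0.155 to 0.276; 2.64, SE 0.54, adjusted p = 0.0298). The gamma 2B probe was well above background in 4 Fn14ko mice and 0 MRL/lpr mice, with a bound of at least 4.69-fold on the separate scale used for such probes below. The sixth called feature was Igh-VJ558 (2.02, adjusted p = 0.0148), whereas the mu constant region of IgM (0.37, SE 0.41) and the alpha constant region of IgA (1.9, SE 0.97) did not pass. The alpha region was already at 2.16 and 4.76 in MRL/lpr mice 3 and 4 and at 0.351 and 0.572 in mice 1 and 2.

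In the kappa, gamma and joining chains, the Fn14ko mice with the higher signal, 2 and 4, were those labelled with Cy5. The gamma 2C difference was 2.98 among the Cy3 mice (adjusted p = 0.0468 by limma) and 5.27 among the Cy5 mice (adjusted p = 0.035). Over the 18 features, the median difference was 1.25 in Cy3, with 1 feature called, and 2.46 in Cy5, with 8 called. The part of the dye in the spread among Fn14ko mice was not tested. Of the 82 probes of the array that were well above background in all 4 Fn14ko mice and 0 MRL/lpr mice, 22 were immunoglobulin probes, with bounds of at least 1.4 to 5.15-fold. Of the 314 probes with the reverse pattern, 3 were, with bounds of at least 2.22 to 3.63-fold. Immunoglobulin probes were not counted over the whole array, so these counts have no background share beside them and are a description only. A probe without a description, NAP020114-001, which lies among the kappa variable genes on chromosome 6 (mm9, chr6:69913261-69913320), had the highest bound of the MRL/lpr side, at least 34.2-fold. Of the 16 measured lymphocyte and plasma cell markers, Jchain alone passed, and the list median was 0.07.

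**Figure D3:**
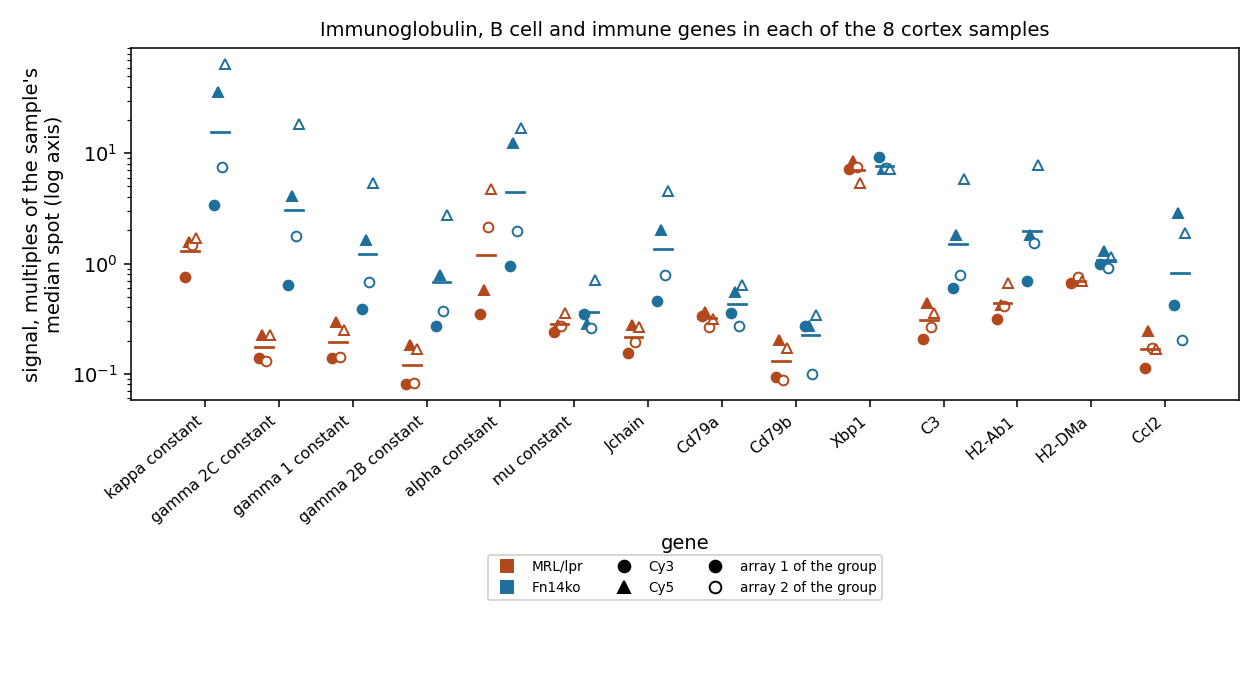
Signal of 6 immunoglobulin constant regions, Jchain, 3 B cell or plasma cell genes and 4 immune genes in each mouse, in multiples of the sample's median spot on a log axis. Brown is MRL/lpr and blue Fn14ko, circles are Cy3 and triangles Cy5, filled and open symbols are the first and second array, and bars are geometric means; in the kappa, gamma and joining chains every Fn14ko mouse lay above every MRL/lpr mouse, and the triangles lay above the circles within Fn14ko.

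The interferon, MHC and complement lists gave no calls. Ifit3b, the interferon-induced gene called lower above, was not a member of the interferon-stimulated list, in which the lowest difference was -0.55. None of the 46 measured interferon-stimulated genes passed (median 0.19), with Igtp, an interferon-induced GTPase gene, closest on the higher side (0.403 to 0.612 in MRL/lpr, 0.688 to 1.8 in Fn14ko; 1.05, SE 0.3, limma adjusted p = 0.0932) and Isg15 at -0.55 (SE 0.19, adjusted p = 0.149). None of 25 MHC class I and peptide loading genes passed (median 0.42), the class I gene H2-Q7 standing at 1.22 (SE 0.41, adjusted p = 0.138) and H2-Bl at 0.62 (SE 0.22, adjusted p = 0.163). None of 7 MHC class II genes passed (median 0.94): H2-Ab1, an antigen-presenting chain, was at 0.317, 0.417, 0.414 and 0.67 in MRL/lpr and at 0.696, 1.81, 1.54 and 7.82 in Fn14ko (2.18, SE 0.58, adjusted p = 0.075), and H2-DMa, which loads peptide on class II, differed by 0.63 (SE 0.18, adjusted p = 0.0852). None of 17 complement genes passed (median 0.31): the central component gene C3 was at 0.207, 0.441, 0.267 and 0.356 against 0.605, 1.82, 0.79 and 5.85 (2.3, SE 0.55, adjusted p = 0.0556), and Cfp, encoding properdin, differed by -0.61 (SE 0.19, adjusted p = 0.115). In H2-Ab1 and C3 the groups did not overlap, Fn14ko 4 was highest and Fn14ko 1 lowest, as in the kappa, gamma and joining chains.

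Of 19 measured chemokines and receptors, 2 fell (10.5% of the list, beside 3.96% of all genes): Ccl27a (8.61 to 13 in MRL/lpr, 3.48 to 5.71 in Fn14ko; -1.28, SE 0.26, limma adjusted p = 0.0288), a chemokine gene best known from skin, and Cxcl11, a ligand of CXCR3 (-1.46, SE 0.29, adjusted p = 0.0263), both of whose probes hold a repeat described below. The chemokine gene Ccl2 was at 0.113, 0.244, 0.173 and 0.167 in MRL/lpr and at 0.423, 2.87, 0.202 and 1.88 in Fn14ko, higher in the Cy5 mice.

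Among glia, the oligodendrocyte and myelin list had a median of 0.76, with 22 of 24 members positive. In it 2 members were called higher and 2 lower, 16.7% of the list beside 3.96% of all genes, and 1 of the lower, Ermn, turned to higher (1.37) without its repeat-holding probe. Trf, encoding the iron carrier transferrin, was between 8.42 and 11.5 in MRL/lpr and between 17 and 25.6 in Fn14ko (1.2, SE 0.22, limma adjusted p = 0.0217). Cnp, encoding a myelin phosphodiesterase, was between 6.06 and 7.62 against 9.79 and 17.7 (1.16, SE 0.23, adjusted p = 0.0287). Lingo1, an inhibitor of oligodendrocyte differentiation that neurons also express, was between 0.985 and 1.39 against 0.422 and 0.51 (-1.23, SE 0.17, adjusted p = 0.00704). With loess within arrays and quantile scaling between them, 10 members were called higher and 2 lower, in a setting that called 1598 of all genes higher and 1312 lower.

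Serpina3n was the only one of 22 astrocyte markers called (median 0.01). Of 24 microglia markers, Siglech alone was called (-2.17, SE 0.23, limma adjusted p = 0.00243), and its 3 probes gave -2.35, -1.64 and 0.27, the first of which holds a repeat described below. The microglial calcium-binding protein gene Aif1 was between 1.71 and 2.59 in MRL/lpr and between 1.21 and 1.35 in Fn14ko (-0.76, SE 0.19, adjusted p = 0.0609), without overlap. None of 26 endothelial and pericyte markers passed (median -0.17), Eng, a co-receptor of TGF-beta, and Ocln, the tight junction gene occludin, standing at -0.71 (SE 0.19, adjusted p = 0.075) and -1.48 (SE 0.42, adjusted p = 0.0867). Of 19 meningeal and collagen markers, Col6a1 fell (2.77 to 4.59 in MRL/lpr, 1.26 to 2.02 in Fn14ko; -1.15, SE 0.22, adjusted p = 0.026). None of 13 blood and erythroid markers passed, though the adult beta-globin genes Hbb-bt and Hbb-b2 were between 22.5 and 73.2 in MRL/lpr and between 6.95 and 26.1 in Fn14ko (-1.69, adjusted p = 0.0819, and -1.87, adjusted p = 0.0822).

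Transmission and signalling lists each held 1 called gene, between 2.33 and 4.17% of their members beside 3.96% of all genes, so the counts do not set these lists apart. Of 35 glutamate receptor and transporter genes, Gria1, an AMPA receptor subunit gene, rose from between 1.52 and 2.7 to between 4.59 and 5.91 (1.41, SE 0.26, limma adjusted p = 0.0217). Of 24 GABA genes, Gabra5, a receptor subunit gene most abundant in hippocampus, rose from 1.38, 1.09, 1.75 and 1.04 to 4.15, 5.85, 4.4 and 6.16 (1.98, SE 0.31, adjusted p = 0.0129). Of 33 monoamine and acetylcholine genes, the serotonin receptor gene Htr5b rose (0.104 to 0.246 against 0.317 to 0.852; 1.78, SE 0.33, adjusted p = 0.0226). Htr5b was dim, well above background in 4 Fn14ko and 3 MRL/lpr mice, and kept its call in 5 of the 8 fits that each left out 1 mouse. The activity-regulated gene Arc was the only one of 27 immediate early genes called, at 74.4, 59.8, 54.1 and 81.8 in MRL/lpr and at 19.4, 24, 35.3 and 26 in Fn14ko (-1.38, SE 0.28, adjusted p = 0.0291), and the list median was -0.35. Of 43 genes of the PI3K, Akt and mTOR pathway (median -0.01), Foxo1, the transcription factor that Akt phosphorylates, rose from between 1.4 and 2.27 to between 3.81 and 5.08 (1.27, SE 0.18, adjusted p = 0.00899). Akt2 itself was between 4.96 and 6.1 in MRL/lpr and between 4.05 and 4.24 in Fn14ko, without overlap (-0.44, SE 0.14, adjusted p = 0.122), and its 4 probes gave -0.23 to -0.52. With loess and quantile scaling Akt2 passed (-0.42, limma adjusted p = 0.0388), in a setting that called 2910 genes, beside 695 in the main fit.

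Of 27 apoptosis genes, the pro-apoptotic Bid rose (0.293 to 0.507 against 0.702 to 0.903; 1.16, SE 0.22, limma adjusted p = 0.0257). None of 17 corticosteroid response genes passed, but their median was 0.57, with Fkbp5, a chaperone of the glucocorticoid receptor, at 1.1 (SE 0.32, adjusted p = 0.0958) and Zbtb16 at 0.57 (SE 0.17, adjusted p = 0.0963). Rorb was the only one of 21 clock genes called. Of 74 ribosomal protein genes and 72 respiratory chain genes, 1 each fell, Rps19 (-0.83, SE 0.16, adjusted p = 0.0258) and Atp5b (-0.79, SE 0.16, adjusted p = 0.0292), the latter with groups that overlapped at 62.2 to 111 against 30.9 to 75.3.

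Of the 188 lower probes without a gene symbol, 25 held a run of at least 4 GAA units, and all probes with simple repeats were counted after this had been seen, so the counts are a description with no test. The 4 probes below, all without a gene name or description, show the pattern; capitals mark the run of GAA units, and coordinates are those of mm9 in the files.
chr1:12764615-12764674, plus strand: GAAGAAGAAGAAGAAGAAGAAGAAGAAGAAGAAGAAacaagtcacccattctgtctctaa
chr5:71567019-71567078, minus strand: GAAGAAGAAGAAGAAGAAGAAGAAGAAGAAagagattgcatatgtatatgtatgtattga
chr14:90900219-90900278, plus strand: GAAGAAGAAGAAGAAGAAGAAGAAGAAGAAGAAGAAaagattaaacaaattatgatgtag
chr7:97951805-97951864, minus strand: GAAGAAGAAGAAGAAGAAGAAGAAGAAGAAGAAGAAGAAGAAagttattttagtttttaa
The chromosome 1 probe was at 65.8, 93.3, 75.6 and 127 in MRL/lpr and at 6.73, 7.9, 13.3 and 13.5 in Fn14ko (-3.15, SE 0.29, limma adjusted p = 0.00168), and the others differed by -3.03, -2.78 and -2.25 in the order shown. No MRL/lpr mouse overlapped an Fn14ko mouse on the chromosome 1 probe.

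A run of at least 4 GAA units was present on 66 of 39429 probes of the array (0.167%), of which 61 were tested singly. Of these 61, 36 were lower in Fn14ko (59%) and 0 higher, beside 2.02% lower and 1.58% higher among all 22722 probes, and 54 were negative. Their median difference was -1.59, beside 0.08 for all probes. The median signal of the 61 was 20.6, 25.3, 20.1 and 27.8 in MRL/lpr against 6.73, 6.54, 10.7 and 13.2 in Fn14ko. Among probes with a mean log2 signal of at least 3, 26 of 41 repeat probes (63.4%) and 116 of 2849 others (4.07%) were lower. The share lower was 10 of 20 probes with 4 to 5 GAA units, 9 of 14 with 6 to 8 and 17 of 27 with 9 or more.

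Other runs and the opposite strand were counted the same way. 4 TTC units, the reverse complement, were on 2 tested probes, 0 of them lower. A run of 4 GGA units was lower on 16 of 29 tested probes (median -1.38), 6 GA units on 5 of 18 and 6 TG units on 17 of 102 (96 negative, median -0.63), whereas 6 CA units, the reverse complement of the last, were lower on 0 of 51 and higher on 2. Of 11 probes with 4 CAG units, 0 were lower or higher. Both strands of each motif were searched, and a probe can hold more than 1 of them. Letters of the interspersed B1 and B2 elements gave fewer probes: CTACACAGAGAA was lower on 4 of 9, GGCAGAGGCAGG on 3 of 3 and GAGATGGCTCAG on 3 of 10. These letters were read from probes of the array, the first pair from the Cxcl11 probes, which are themselves among the lower ones counted. The counts therefore give no separate evidence on these elements. The reverse complements of the first pair were lower on 0 of 4 and 0 of 2 probes, but that of the last was lower on 2 of 7, all 7 negative (median -0.71).

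Probes of named genes were among them, and a stretch of 30 bases is shown for those whose call depends on or carries such a motif, which is in capitals.
Ermn: tgtgacgagGAAGAAGAAGAAgaagaagaa
Siglech: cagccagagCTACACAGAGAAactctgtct
Cxcl11, first probe: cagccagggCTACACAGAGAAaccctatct
Cxcl11, second probe: cacttgaaaGGCAGAGGCAGGaggatctct
Sox5: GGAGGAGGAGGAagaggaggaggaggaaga
Gxylt2: ctggatattTGTGTGTGTGTGtgtgaatat
Ermn, a gene of the oligodendrocyte cytoskeleton, had a merged difference of -1.41 (SE 0.3, limma adjusted p = 0.0351), in which the probe with the repeat gave -1.59 and the probe without it 1.37 (adjusted p = 0.0198). With repeat-holding probes left out, Ermn was higher in Fn14ko (1.37, adjusted p = 0.0226), Siglech was at -1.04 (adjusted p = 0.168) and Gxylt2 at -0.89 (adjusted p = 0.573), and no microglia marker was called. Cxcl11 and Sox5 have no other retained probe.

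Of the 17549 genes, 319 (1.82%) have a probe with at least 1 of these motifs, and they made up 81 of the 390 lower genes (20.8%) and 4 of the 305 higher genes (1.31%). The motifs were chosen after differences had been seen, those of B1 from the Cxcl11 probes, so these shares are a description with no test. With all motif-holding probes left out, 572 of 17344 genes were called, 271 higher and 301 lower, and 569 of them were among the 695. What the repeat probes bind in these samples was not measured, and the part of hybridisation conditions of the slides, each of which held 1 group, cannot be told apart from that of the genotype.

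**Figure D4:**
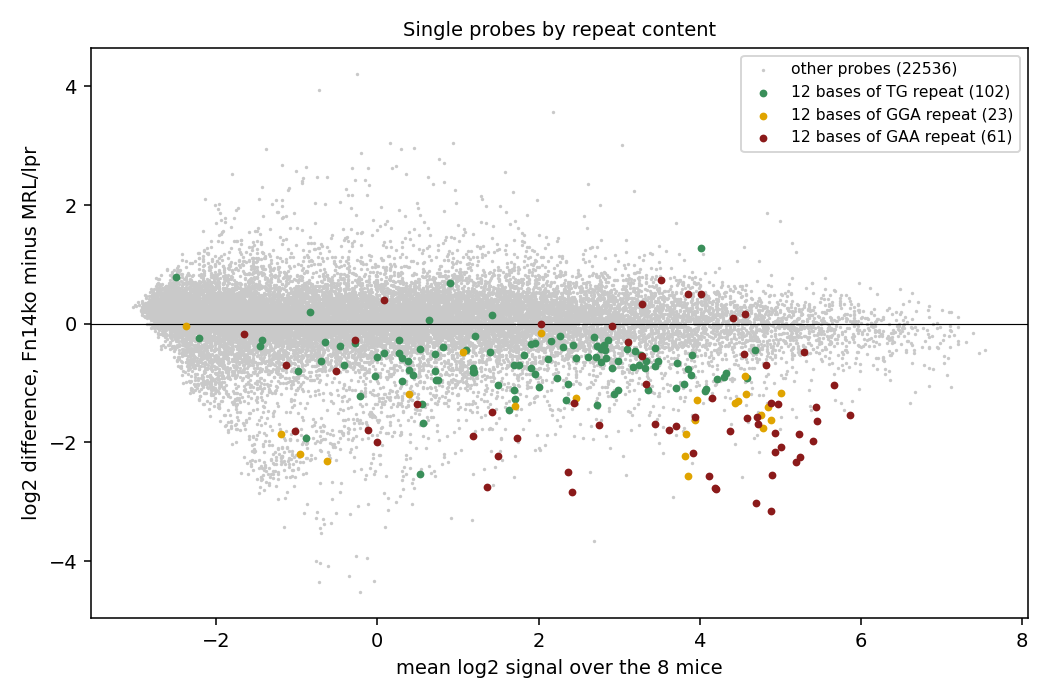
Log2 difference between Fn14ko and MRL/lpr of each single probe against its mean log2 signal over the 8 mice, with probes coloured by whether they hold 12 bases of a GAA, GGA or TG repeat and all others in grey. The GAA probes lie mostly below 0, with a median of -1.59 against 0.08 for all probes.

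Some probes were called well above background in 1 group only. Well above background in all 4 Fn14ko mice and in 0 MRL/lpr mice were 82 probes, 41 of them with a symbol, and in the reverse direction 314 probes, 175 with a symbol. Folds for these are lower bounds, taken against the dimmest detectable signal, and apart from the second Krt2 probe those named here were not part of the fit. The log2 levels and bounds of such probes are on another scale than the multiples of the median retained spot. For the gamma 2B probe in MRL/lpr 1, for example, the log2 level was -1.23, while the signal given above was 0.0806. Levels on the 2 scales cannot be compared. The array holds 39429 non-control probes, of which marked ones were not counted. Negative control spots lay at 2.58 and 2.65 times background in the Cy5 channels of Fn14ko and at 1.67 and 1.7 in those of MRL/lpr. The part of this difference in the counts was not tested. On the Fn14ko side the highest bounds with a symbol were at least 2.98-fold for the sodium-proton exchanger gene Slc9a4, 2.82-fold for the myeloperoxidase gene Mpo, 2.68-fold for the keratin gene Krt2, whose second probe gave at least 1.49-fold and in the fit of single probes an adjusted p of 0.526 by limma, 2.56-fold for Cd8b1, a T cell co-receptor gene, and 2.47-fold for Shroom4.

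On the MRL/lpr side they were at least 9.39-fold for Iqch, 9.07-fold for Nectin3, 5.89-fold for the forkhead factor gene Foxf1, which has another probe above background, 5.83-fold for the olfactory receptor gene Olfr743 and 5.4-fold for Adam34. Outside the naming rule, the MRL/lpr probes also held that of the Y chromosome gene Sry, at least 3.54-fold, although all mice were female. A call above background on this side therefore does not by itself show that the named transcript was present. The bounds for Iqch and Nectin3 were each carried by 1 array. On the scale of these probes, Iqch was at log2 3.48, 4.78, -0.28 and -0.17 in MRL/lpr 1 to 4. Nectin3, a cell adhesion gene with another probe above background in both groups, was at log2 -0.47, -0.11, 3.24 and 5.03. In 75 of the 314 MRL/lpr probes, the 2 arrays of the group differed by more than 1 on the log2 scale, and in 5 of the 82 Fn14ko probes. The median bound was 2.84-fold on the MRL/lpr side and 1.64-fold on the Fn14ko side.

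Because the Fn14ko allele was brought in by backcross, genes near Tnfrsf12a on chromosome 17 were counted by distance. Within 2 Mb of its probe, 3 of 105 genes were called (2.86%), within 5 Mb 7 of 199 (3.52%), within 10 Mb 11 of 306 (3.59%) and within 20 Mb 15 of 538 (2.79%), beside 3.96% of all genes. Each window counts Tnfrsf12a itself among the called genes. On the whole chromosome, 29 of 873 genes were called (3.32%), and over the chromosomes the share ran from 2.8% on chromosome 19 to 5.24% on chromosome 3. The median absolute log2 difference was 0.31 within 2 Mb and 0.27 over all genes. The share of genes called was below the background in every window, while of single probes 5 of 134 within 2 Mb were called, 3.73% beside 3.61% of all probes. The MHC genes H2-DMa, H2-Ab1 and H2-Q7 lie 10.46, 10.59 and 11.77 Mb from the Tnfrsf12a probe, inside the 20 Mb window. The part of the backcross in their differences was not tested. Sequence differences between the donor and MRL segments were not examined.

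**Figure D5:**
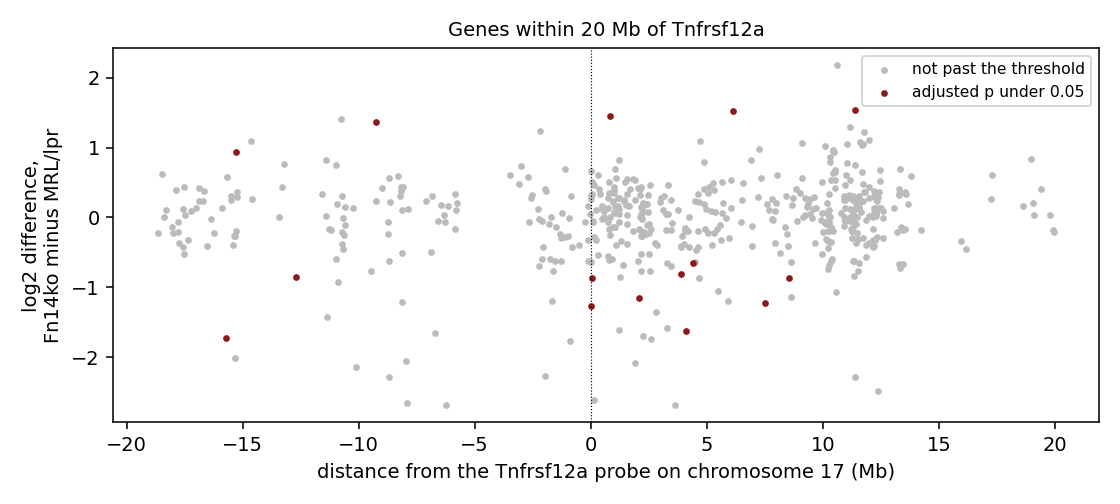
Log2 difference between Fn14ko and MRL/lpr of each gene on chromosome 17 within 20 Mb of the Tnfrsf12a probe, against its distance in Mb. Red points passed a limma adjusted p of 0.05 and grey points did not. Of 538 genes, 15 passed, Tnfrsf12a itself among them, and they were spread over the window.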

How the data were processed

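The deposited files are the scanner output of 4 two-colour arrays. Per the file headers they hold, for each spot and channel, the mean foreground and median local background intensity, not normalized, and the software's own processed intensity, corrected for background and dye by the authors' software. Groups came from the labels, and gene names and mm9 coordinates from the files, whose other 2 arrays (MRL/+) entered only an alternative.

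Control spots, marked spots (1663) and spots under 2 times background in any of the 8 mice (17451) were left out. The study's own filter took all 12 samples and is an alternative. Background was corrected with normexp (offset 50) in limma 3.58.1 under R 4.3.3 and version 1.17.8 of data.table; channels were scaled to the median retained spot, spots of a gene were averaged on the linear scale, and log2 values were fitted with group and dye, the array as a random block (correlation 0.432) and a variance trend. The test was 2-sided, with p adjusted by Benjamini-Hochberg across every gene tested. The mean is governed by a gene's brightest probe, so single probes were tested too.

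The number of arrays limits the precision: the median SE of a log2 difference was 0.22. The mice are separate animals by the labels. Named genes are Tnfrsf12a, Tnfsf12, Fas and Akt2; the 10 highest and 10 lowest called genes with a symbol whose groups do not overlap and which are well above background in all mice; in each list up to 4 called members with the lowest p, or up to 2 where none is called; and the 5 highest bounds on each side. Of the genes this rule chose, 1 is not reported here. Members and lists were chosen with earlier results of these data known. Scripts were tested on simulated data; figures were drawn with Python 3.11.15 and matplotlib 3.10.9. Alternatives covered background, scaling, filters, merging of probes, terms of the fit, dyes, left-out mice and arrays, and the methods' t-test.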

Additional observations from a re-analysis of the deposited data

Results flagged for a closer look

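Of 136 sets of 4 values, 1 for each named gene and group, 5 held a mouse far from the other 3 of its group by Dixon's criterion, which chance alone meets in about 1 set in 20. Tcap was at 3.92 in MRL/lpr 1 and between 2.77 and 2.87 in the other MRL/lpr mice, and Traf5 was at 0.709 in MRL/lpr 1 and between 0.812 and 0.824 in the others. Cnp was at 9.79 in Fn14ko 4 and between 16.4 and 17.7 in the other Fn14ko mice. Vip was at 0.979 in Fn14ko 1, with the others between 1.32 and 1.4, and at 2.03 in MRL/lpr 3, with the others between 2.88 and 2.92. In all 5 sets the separate mouse still lay on its own group's side.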

How the results depend on the processing

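The number of genes called ran widely with the processing. The 695 genes became 3158 with background subtracted, 3714 from the software's processed signal, 2910 with loess and quantile scaling, 3012 with quantile scaling alone, 1274 with only spots well above background and 39 with no filter on dim spots, a setting that moved the median of all genes to 0.34. The fit gave 2438 without the array block and 2162 with a replicate block, which kept all 695; the correlations of same-numbered deviations were -0.14, 0.27, 0.3 and -0.02, so the numbers were not taken to pair mice. Cy3 mice alone gave 193 and Cy5 mice alone 343. Without MRL/lpr array 1 or 2 the count was 1135 or 1278, and without Fn14ko array 1 or 2 it was 1634 or 4065. Leaving out each mouse gave 201 to 885, the lowest without Fn14ko replicate 2 (201), MRL/lpr replicate 1 (268) and MRL/lpr replicate 4 (385). The methods' t-test gave 1359 genes at the study's own cut-offs and 179 after Benjamini-Hochberg adjustment. The causes of these shifts were not tested.

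Called genes kept their direction in every setting run except with no filter on dim spots (693 of 695) and, chosen after seeing the data, with repeat-holding probes left out (620 of 627), where Ermn turned to 1.37. The groups did not overlap in 688 of the 695, so leaving out mice, an array or a dye could hardly turn a direction. In the setting of single probes, differences were averaged over a gene's probes, which hides probes that oppose each other. The settings without a count in the preceding paragraph gave 572 to 913 genes or probes. Tnfrsf12a stayed negative throughout but missed the threshold with no filter on dim spots (-1.15, limma adjusted p = 0.513), in Cy5 mice alone (-1.05, adjusted p = 0.0801) and under the adjusted t-test of the methods (-1.28, adjusted p = 0.0696), and leaving out each mouse gave -1.18 to -1.37. Probes found well above background in Fn14ko only numbered 164 when 3 of 4 mice sufficed. For single named genes, 243 fits over all settings lost the call and 151 gained it. Signal over background limited the dim genes: the negative control spots lay at 2.58 and 2.65 times background in the Cy5 channels of Fn14ko, at 1.67 and 1.7 in those of MRL/lpr and at 1.13 to 1.29 in Cy3.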
